A study of Homo sapiens with 3 samples.

Results

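The cytosolic ribosomal proteins are the proteins of the large (RPL) and small (RPS) subunits of the ribosome outside the mitochondria. Their transcripts were read on 3 Affymetrix HG-U133 Plus 2.0 arrays. The cells were NCI-H1650, a line established from a human lung adenocarcinoma. Members were the probe sets that the platform annotation gives to a single gene whose symbol begins with RPL or RPS and a digit, or is RPLP0, RPLP1, RPLP2 or RPSA, leaving out RPS6K kinases and most pseudogenes. The rule used no measured value and found 69 of 19775 genes, carried by 130 of the 41097 single-gene probe sets. Of these genes, 52 are ribosomal proteins proper (32 of the large and 20 of the small subunit, called the core below) and 9 are like proteins, that is paralogs of a ribosomal protein. A further 5 are pseudogenes whose symbols passed the rule, and 3 are no ribosomal protein genes (RPS19BP1, RPL26L1-AS1 and RPL34-DT). RPLP0, RPSA, RPL5, RPL10, RPL13A, RPL26 and RPS27A had no single-gene probe set and were not analysed here.

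One array held cells exposed to 40 µM of colo H (colossolactone H, a fungal triterpenoid) for 12 h, one held cells exposed to the same dose for 24 h, and one held control cells. For the treated arrays 1000000 cells were plated per 10 cm dish, and every array took 6 µg of RNA. The labels state neither when the control was collected nor whether it received a vehicle. Each group was 1 array, so no difference has a replicate error or a p-value, and both treated arrays were set against the same control array. A bulk array cannot tell fewer cells of a type from less RNA per cell. Values are MAS5 signal, a linear intensity that the deposited files bring to a common trimmed mean (500.1 on each array), so a shift of all transcripts together would not show.

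The 50th percentile of all signals, 61.4, served as the floor: a lower signal was raised to it, and 12351 genes with a signal above it on 1 or more arrays counted as measured. All 8 epithelial markers were measured, among them EPCAM at 13754.3, 13538.2 and 13032.6, CDH1 at 20218.4, 20491.9 and 20420.7 on the 12 h, 24 h and control arrays, and the dimmer CLDN4 at 831.0, 887.8 and 514.8. Of 4 lung lineage markers, SFTPB (183.8, 186.1 and 235.6) and SFTPC (161.0, 131.6 and 84.3) were above the floor on each array and NAPSA on the 24 h array alone, while the lineage factor NKX2-1 was below it on all 3. Also below it on all 3 were the leukocyte markers PTPRC, CD3E and CD14 and the stromal and vascular markers DCN, LUM, PDGFRB and VWF. Other stromal and vascular markers were above it on each array: COL1A1 (689.2, 495.0 and 729.8), COL3A1 (650.4, 584.9 and 876.9) and PECAM1 (98.3, 89.3 and 137.1). On their brightest probe sets, ITGAM was above it on the control array alone and HBB on the 12 h array alone. The ratio of 3′ to 5′ ACTB signal, a measure of RNA integrity, was 5.38 at 12 h, 6.55 at 24 h and 4.95 in control cells, and that of GAPDH, highest at 12 h, was 1.24 at 24 h and 1.21 in control cells. The part of RNA quality in the differences below was not tested.

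A ribosome joins a small subunit, which reads the mRNA, to a large subunit, which forms the peptide bond and releases the chain through an exit tunnel. The mRNAs of ribosomal proteins are among the most abundant of growing cells. Most begin with a terminal oligopyrimidine (TOP) run, a C followed by further pyrimidines, through which mTOR signalling and the RNA-binding protein LARP1 set their translation and stability. Such control of translation need not change the mRNA level, which is what these arrays read.

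RefSeq promoter windows (GRCh38.p14, 250 bases before to 50 after the annotated start) were found for 55 of the 69 members. A pyrimidine run was counted where a C within 5 bases of the annotated start was followed by at least 4 pyrimidines, on the gene's strand only. It was present in 40 of 46 core windows (87.0%) and in 3 of 7 like proteins (42.9%). Among mitochondrial ribosomal proteins 14 of 68 (20.6%) had it, and among all genes 5749 of 27305 (21.1%). The stretch of pyrimidines can begin farther upstream, as in RPL36AL below, and is then in capitals only from the first such C. By the stricter rule that the annotated first base is itself a C followed by at least 4 pyrimidines, a start was present in 33 of 46 core windows (71.7%), in 2 of 7 like proteins (28.6%), in 4 of 68 mitochondrial ribosomal proteins (5.88%) and in 1104 of all genes (4.04%). Below, the 20 bases before and the 20 bases from the start are printed with the run in capitals. RPS6, RPS9 and RPL18 show the usual core start. RPS15 and RPL27 are the bright members farthest from the control at 12 h and have no such run within 5 bases of the start. The remaining lines pair a core protein with its paralog.
RPS6, chr9:19380217-19380256, minus strand: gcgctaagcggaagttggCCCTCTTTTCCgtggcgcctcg
RPS9, chr19:54200838-54200877, plus strand: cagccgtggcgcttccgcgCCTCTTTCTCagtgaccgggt
RPL18, chr19:48619159-48619198, minus strand: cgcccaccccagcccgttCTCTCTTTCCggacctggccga
RPS15, chr19:1438376-1438415, plus strand: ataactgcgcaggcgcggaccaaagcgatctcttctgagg
RPL27, chr17:42998399-42998438, plus strand: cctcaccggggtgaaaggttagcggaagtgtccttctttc
RPS27, chr1:153990742-153990781, plus strand: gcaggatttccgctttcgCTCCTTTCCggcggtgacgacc
RPS27L, chr15:63157458-63157497, minus strand: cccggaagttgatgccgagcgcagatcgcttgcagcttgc
RPL22, chr1:6199576-6199615, minus strand: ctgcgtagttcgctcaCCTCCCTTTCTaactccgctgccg
RPL22L1, chr3:170870176-170870215, minus strand: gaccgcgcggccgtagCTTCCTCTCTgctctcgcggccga
RPL36A, chrX:101390991-101391030, plus strand: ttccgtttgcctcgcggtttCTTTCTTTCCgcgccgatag
RPL36AL, chr14:49620607-49620646, minus strand: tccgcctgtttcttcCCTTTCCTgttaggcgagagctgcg
A run is a description of these letters and not a mapped TOP mRNA, since annotated starts can differ from the starts used in these cells. The RPL22 and RPL22L1 lines both hold a run over the start, whereas RPS27 holds one and RPS27L has none within 5 bases of it. In the RPS15 and RPL27 lines a C followed by at least 4 pyrimidines lies farther downstream, outside that window and not in capitals.

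The core was measured throughout, with 52 of 52 genes above the floor, and 49 of them had a mean signal of at least 10000. Among these 49, signal spanned 10662.9 to 30747.3 at 12 h, 10379.5 to 31283.0 at 24 h and 9828.0 to 30374.8 in control cells, with medians of 21007.0, 20627.9 and 20025.0. The dimmest of them stood at percentile 96.6 of measured genes at 12 h, 96.5 at 24 h and 96.3 in control cells. Members made up 30 of the 100 brightest genes at 12 h, 30 at 24 h and 29 in control cells, and the core gave 4.1%, 4.18% and 4.01% of the summed gene signal. The highest signal of any gene was 33362.4 at 12 h, 34145.0 at 24 h and 33663.8 in control cells, so the brightest members lay close to the top of the array's range. Whether probes there were near saturation, where differences read smaller than they are, was not tested. Because probe sets differ in response, signals of different genes are not set against each other as amounts.

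After 12 h the ribosomal protein transcripts were close to their control level. The median log2 difference from control was 0.06 over the 64 measured members, 0.06 over the core and 0.00 over all measured genes. Of the 52 core genes 42 read higher and 10 lower than in the control, with quartiles of 0.01 and 0.09. A difference of 0.32 on the log2 scale, that is 25% more or 20% less signal, was used to count larger differences. RPS15 and RPL10L read at least 25% higher, as did 12.5% of all measured genes, and RPL27 read at least 20% lower, as did 12.5% of all genes. None was 2-fold apart, against 0.883% of all measured genes. RPL10L, a testis paralog of RPL10, was at the floor on the control array (signal 77.1, 52.7 and 46.7 on the 12 h, 24 h and control arrays), so its 0.33 is a bound near the detection limit.

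After 24 h the picture was much the same in size. The median difference was 0.07 over the measured members, 0.08 over the core and 0.00 over all measured genes, with 45 core genes higher and 7 lower. RPLP2 and RPL27A read at least 25% higher, beside 13.8% of all genes, and RPL36A and the pseudogene RPL7AP10 at least 20% lower, beside 16.1% of all genes. No member was 2-fold apart, against 1.23% of all genes. All 4 of these members were read from dim probe sets (mean signal under 1000), and none of the 49 bright core genes was as far from control at this time.

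The level at 24 h against that at 12 h had a median of 0.02 over the members, 0.03 over the core and -0.01 over all genes, with 33 core genes higher and 19 lower, and the median over the members turned to -0.01 under median centring, -0.02 under quantile normalization, -0.0008 with the median over probe sets and -0.01 with probe sets that carry no mark in their ID. RPLP2 was at least 25% higher at 24 h (6.76% of all genes), RPL36A and RPL10L at least 20% lower (8.79% of all genes), and no member was 2-fold apart (0.324% of all genes). Among bright core genes RPL27 stood highest in this comparison at 0.27 and RPS15 lowest at -0.21, the same members that stood farthest from the control at 12 h. Their 24 h values lay between those of 12 h and the control. Both comparisons use the same 12 h array, so an extreme 12 h value moves them in opposite directions.

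**Figure D1:**
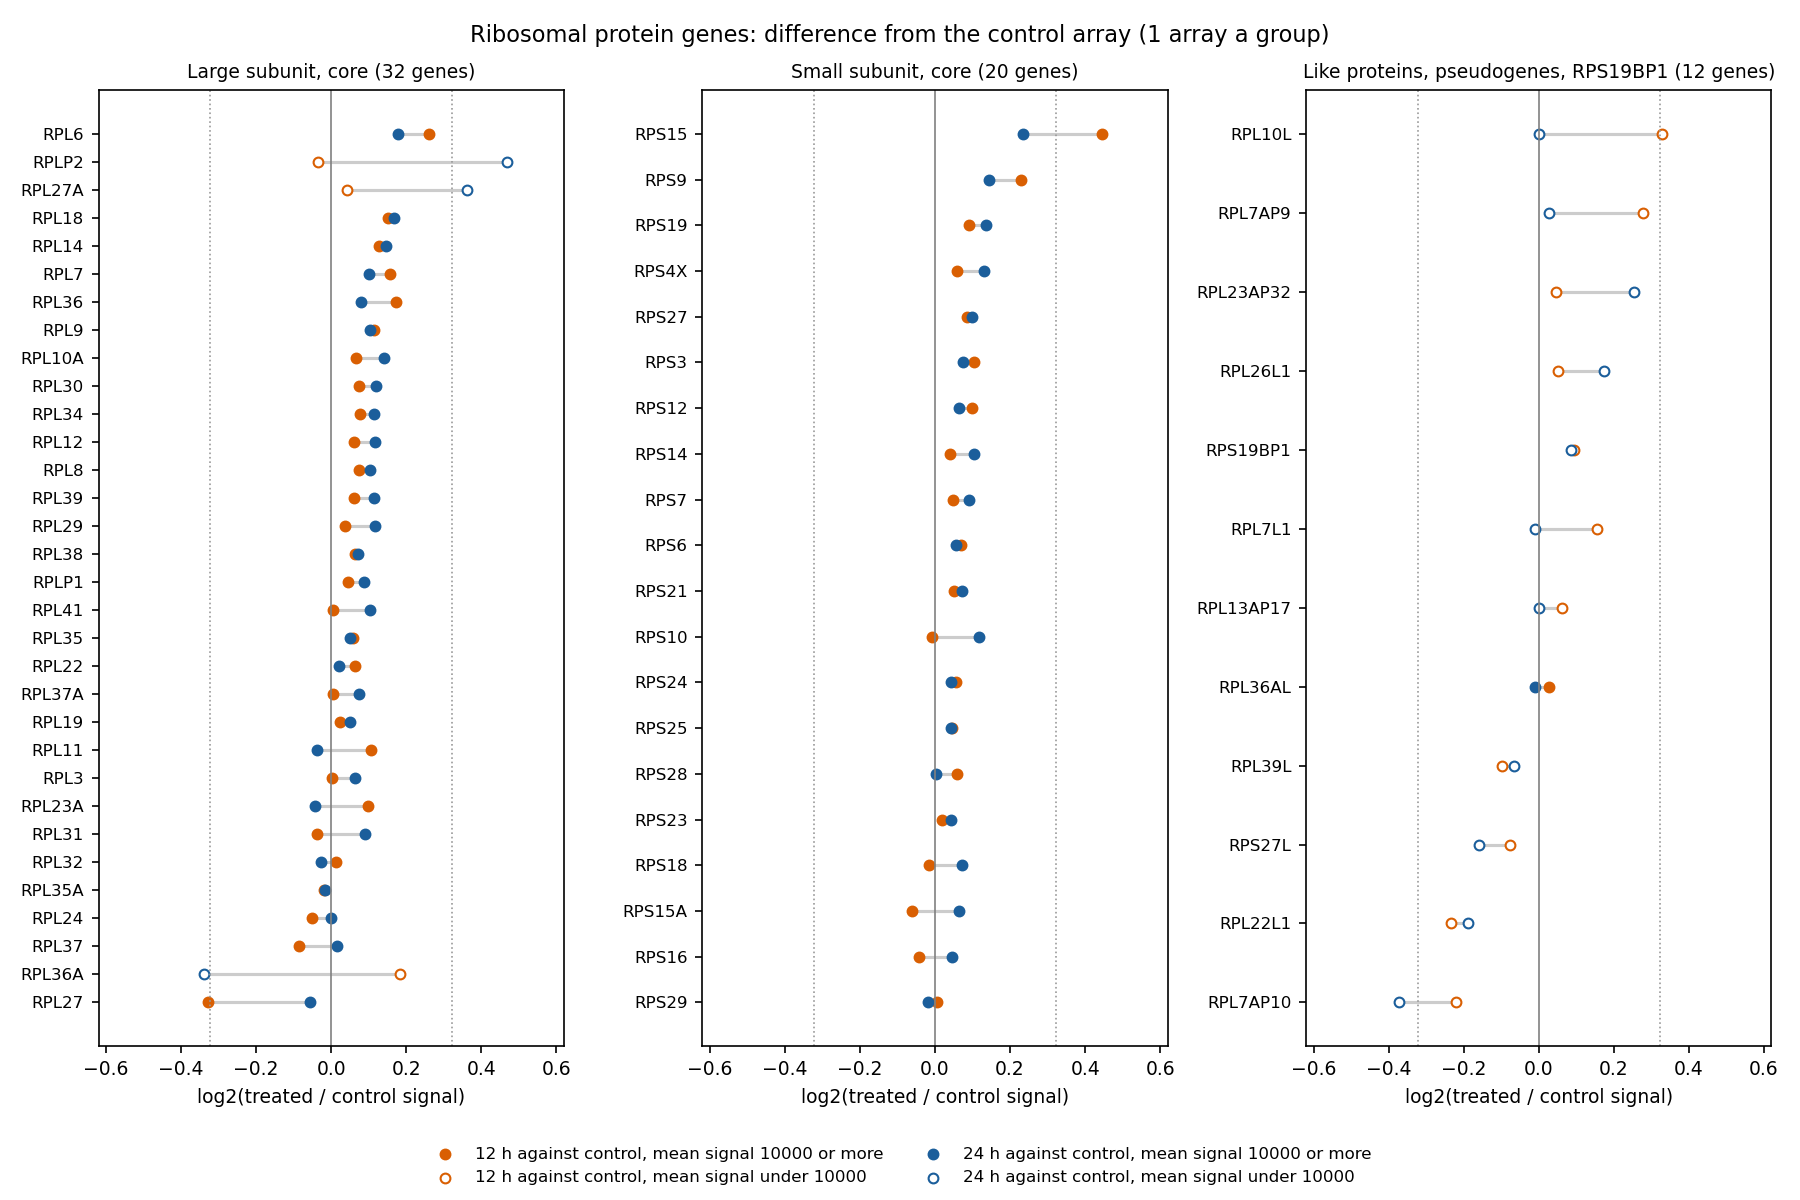
Log2 difference of treated over control signal for each of the 64 measured members, 12 h in orange and 24 h in blue, ordered by their mean, with open circles for genes of mean signal under 10000 and dotted lines at 25% more and 20% less signal. Bright core genes crowd just above 0, RPS15 and RPL27 stand apart at 12 h, and the widest 24 h values are open circles.

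Small differences are easiest to judge against other genes of like signal. Of 407 other genes with a mean signal of at least 10000, 254 read higher and 153 lower than control at 12 h, with a median of 0.04, and 276 higher and 131 lower at 24 h, with a median of 0.05. The 49 bright core genes had medians of 0.06 and 0.08 at the same times. A difference of at least 0.32 either way was reached by 2 of these 49 core genes at 12 h (4.91% of the other bright genes), by 0 at 24 h (9.34%) and by 0 between 24 h and 12 h (1.23%). Core genes spanned -0.33 to 0.44 at 12 h and -0.06 to 0.24 at 24 h, whereas the other bright genes spanned -0.38 to 0.82 and -0.57 to 0.83. Both sets thus read slightly above the control as deposited. For the other bright genes the sign of the median depends on scaling, and for the core its size and the counts do. Under quantile normalization the medians over all 52 core genes were 0.02 at 12 h (37 higher, 15 lower) and 0.02 at 24 h (30 higher, 21 lower). Those of the other bright genes were -0.0032 (195 higher, 206 lower) and -0.0048 (195 higher, 205 lower). Under cyclic loess, which removes trends with signal, the medians over all 52 core genes were 0.04 and 0.06. Those of the other bright genes were 0.02 and 0.03.

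**Figure D2:**
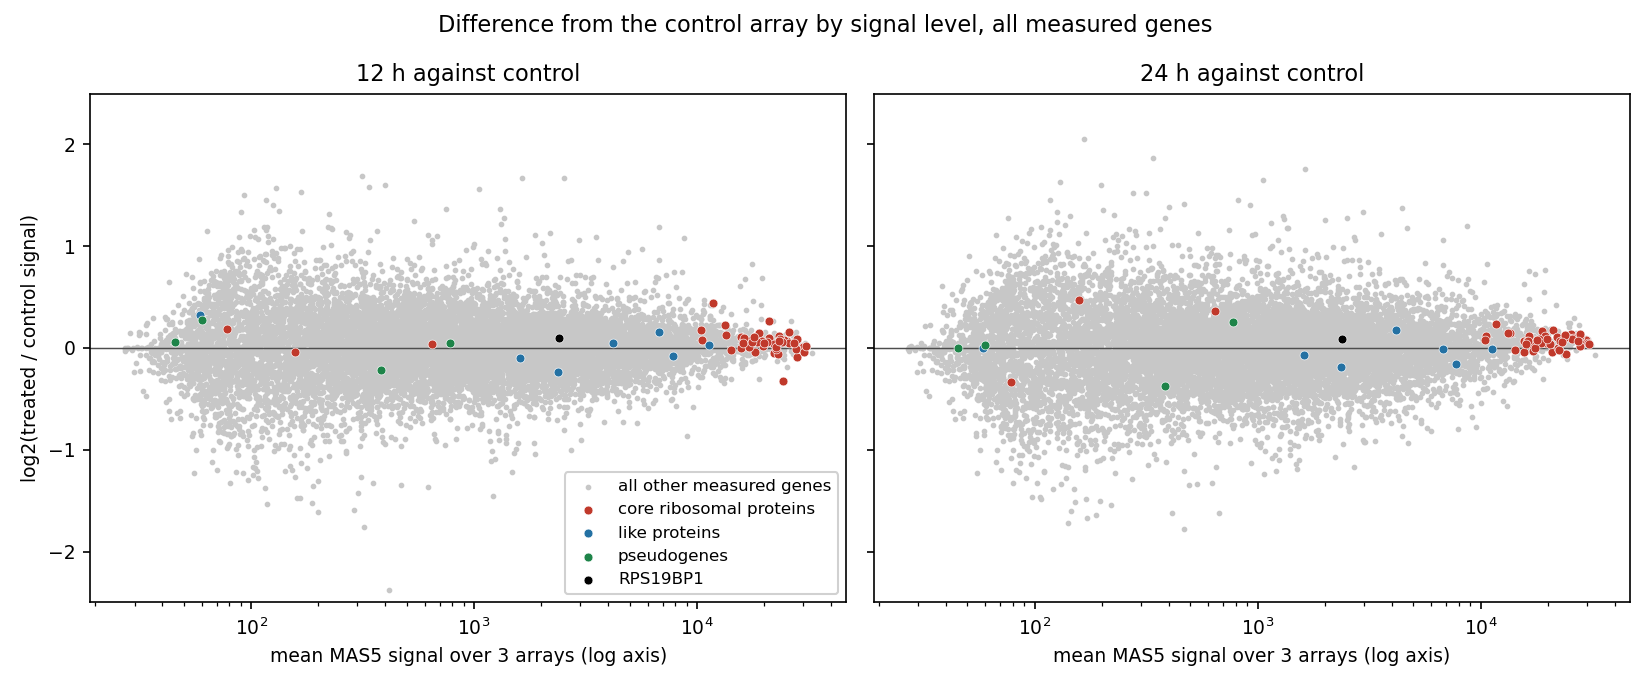
Log2 difference of treated over control signal (vertical) against mean signal over 3 arrays (horizontal, log axis) for all measured genes, with core ribosomal proteins in red, like proteins in blue, pseudogenes in green and RPS19BP1 in black. The core sits at the bright end, where the spread of all genes is narrowest, and its 3 dim genes lie at the left, with a wider spread at 24 h.

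By subunit, the 32 large subunit genes had a median difference of 0.06 at 12 h (26 higher, 6 lower) and 0.09 at 24 h (26 higher, 6 lower). The 20 small subunit genes had 0.05 at 12 h (16 higher, 4 lower) and 0.07 at 24 h (19 higher, 1 lower). The spread among the probe sets of one gene was also measured. Over 14 core genes with at least 2 bright probe sets its median SD was 0.04 at 12 h and 0.05 at 24 h, as a scale for single genes only. The difference between the subunits was not tested.

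RPS15, a small subunit head protein near the decoding centre, gave the largest core difference at 12 h. Its signal was 13569.9 at 12 h and 11744.1 at 24 h, against 9975.2 in control cells. Both treated arrays were above the control, by 0.44 at 12 h and 0.24 at 24 h on the log2 scale (1.36-fold and 1.18-fold), with 1 measured probe set. RPL6, a large subunit protein, had 22748.8 at 12 h and 21483.1 at 24 h, against 18977.7 in control cells (log2 differences 0.26 and 0.18), again with 1 probe set. RPS9, a protein of the small subunit body, had 14285.8 and 13474.1, against 12188.2 in control cells (0.23 and 0.14). Its second probe set read the same way, with 11288.2 at 12 h and 10671.9 at 24 h against 9177.7 in control cells (0.30 and 0.22). RPL36 (11071.2 and 10379.5, against 9828.0 in control cells), RPL18 (19450.6 and 19681.9, against 17513.1) and RPL7 (27229.7 and 26171.2, against 24412.9) were the next highest bright core genes at 12 h.

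RPL27 went the other way. It is a large subunit protein that also takes part in rRNA maturation, and its signal was 21007.0 at 12 h and 25382.2 at 24 h, against 26389.8 in control cells. The 12 h array was the low one (-0.33, 1.26-fold lower than control), while the 24 h array was within 0.06 of the control. With a single probe set on a single array this value has no second reading. RPL37 had 26832.0 and 28780.5, against 28454.1 in control cells (-0.08 and 0.02), and RPS15A 22185.9 and 24187.3, against 23130.6 (-0.06 and 0.06).

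**Figure D3:**
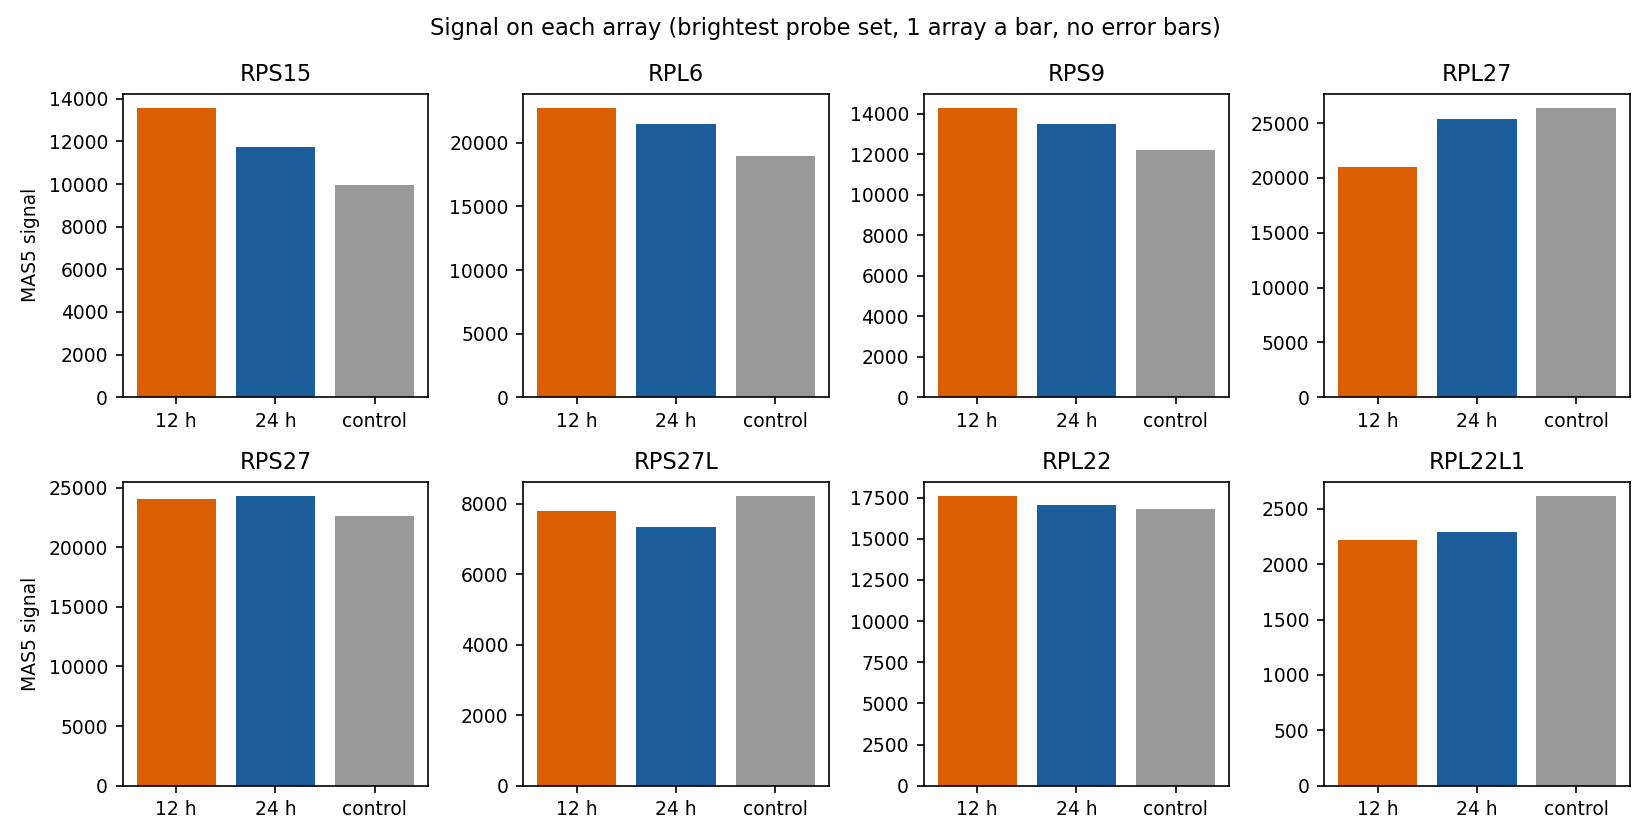
MAS5 signal of 8 members on the 12 h, 24 h and control arrays (1 array a bar, no error bars, axes from 0 and different for each gene). RPS15, RPL6 and RPS9 are lowest in control cells, RPL27 is lowest at 12 h, and RPS27L and RPL22L1 are highest in control cells while RPS27 and RPL22 are lowest there.

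Groups by role are described next, with no test between them. In the stalk, which recruits elongation factors, RPLP1 had 25748.0 at 12 h and 26527.4 at 24 h, against 24966.4 in control cells (0.04 and 0.09), and RPL12, at the stalk base, had 19180.6 and 19955.4, against 18390.4 (0.06 and 0.12). The other acidic stalk protein, RPLP2, was read only from a dim probe set with 137.6 and 195.4, against 141.1 in control cells (-0.04 and 0.47), so its 24 h value rests on dim signal. RPL11, which with RPL5 and 5S rRNA can bind MDM2 when ribosome assembly fails, had 16607.3 and 15036.8, against 15431.4 in control cells (0.11 and -0.04). The 12 h array was the highest and the 24 h array the lowest.

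Of 10 genes listed for the exit tunnel and its rim, 7 were measured. Their median difference was 0.06 at 12 h and 0.05 at 24 h. RPL39, which lines the tunnel, had 27338.6 and 28345.1, against 26203.5 in control cells. RPL23A, at the tunnel exit, had 22130.4 and 20062.5, against 20681.8 (0.10 and -0.04), and RPL31, another rim protein, had 17571.2 and 19193.2, against 18026.1 (-0.04 and 0.09). RPL23A was higher on the 12 h array and RPL31 on the 24 h array. Of 13 genes listed for the small subunit head, 10 were measured, with medians of 0.05 and 0.07. Under quantile normalization the 24 h medians were -0.01 for the tunnel genes (2 higher, 5 lower) and -0.0009 for the head genes (5 higher, 5 lower). RPS10, one of the head proteins, had 27025.8 and 29509.4, against 27189.1 in control cells (-0.01 and 0.12).

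RPS6, the small subunit protein phosphorylated by S6 kinases, had 23735.8 and 23525.9, against 22639.5 in control cells (0.07 and 0.06). Its other bright probe sets had 22105.4 and 22061.3, against 21925.4, and 17210.3 and 17503.4, against 17307.3, differences of at most 0.02 either way. RPS19, needed to mature the small subunit's rRNA and mutated in Diamond-Blackfan anaemia, had 28183.3 and 29127.2, against 26488.2 (0.09 and 0.14). Of a selection of 9 genes tied to that disease, 6 were measured. These 6 had medians of 0.05 and 0.07 (0.01 and -0.01 under quantile normalization). RPL41, a very short peptide of the large subunit, had 27265.3 and 29222.0, against 27193.3 (0.00 and 0.10), and RPL3, by the peptidyl transferase centre, had 15455.3 and 16127.6, against 15425.2 (0.00 and 0.06).

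Of the 9 like proteins 7 were measured. Of these, 4 read higher than control at 12 h (median 0.03) and 1 at 24 h (median -0.01). Under quantile normalization their medians were -0.01 and -0.05. RPS27L, a paralog of RPS27 that is induced by p53, had 7784.4 at 12 h and 7352.4 at 24 h, against 8209.3 in control cells (-0.08 and -0.16). RPS27 itself had 24038.0 and 24265.2, against 22659.8 (0.09 and 0.10), so on these probe sets the paralog was lower relative to RPS27 by 0.16 at 12 h and 0.26 at 24 h. The other RPS27L probe sets, both dim, gave -0.23 and -0.50 at 12 h and 0.18 and -0.45 at 24 h, so its 24 h direction differs among probe sets.

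RPL22L1 had 2222.6 and 2293.0, against 2613.0 in control cells (-0.23 and -0.19). RPL22, which in mouse represses Rpl22l1, had 17576.6 and 17043.2, against 16807.4 (0.06 and 0.02), and its 5 probe sets spanned -0.12 to 0.10 at 12 h. The direction for RPL22 is therefore not settled, whereas RPL22L1 was lower than control on both treated arrays, by more than any RPL22 probe set at 12 h. RPL39L, a testis-enriched paralog of RPL39, had 1563.9 and 1601.4, against 1675.0 (-0.10 and -0.06).

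RPL36AL had 11423.9 and 11127.3, against 11211.2 in control cells (0.03 and -0.01), while its parent RPL36A was read from a probe set near the floor with 91.0 and 63.4, against 80.2 (0.18 and -0.34). RPL7L1, which acts in ribosome assembly, had 7287.3 and 6499.9, against 6543.1 (0.16 and -0.01). RPL26L1 had 4119.1 and 4483.9, against 3973.0 (0.05 and 0.17). The paralogs RPL3L, which is restricted to muscle, and RPS4Y1 were below the floor on all 3 arrays, while RPS4X, the paralog of RPS4Y1, had 23910.1 and 25114.8, against 22956.1 (0.06 and 0.13).

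Among the remaining members, RPL27A was read from 1 dim probe set with 603.4 and 753.2, against 585.8 in control cells (0.04 and 0.36). The pseudogene RPL7AP10 had 375.5 and 337.6, against 437.1 (-0.22 and -0.37), and the pseudogene RPL23AP32 had 747.9 and 864.1, against 724.4 (0.05 and 0.25). Pseudogene probes can share sequence with the parent mRNA, which the files do not resolve. RPS19BP1, an RPS19-binding nucleolar protein, had 2450.9 and 2435.9, against 2294.5 (0.10 and 0.09).

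Probe sets of the same gene gave unlike values mainly where one of them was dim. For RPS15A the bright probe set differed from control by -0.06 at 12 h and 0.06 at 24 h, while a dim one had 585.2 and 535.2, against 954.3 in control cells (-0.71 and -0.83). For RPL35A a dim probe set had 160.6 and 243.1, against 317.2 (-0.98 and -0.38). The brightest RPL35A probe set had 14164.9 and 14199.0, against 14359.2 (-0.02 and -0.02), and the other bright one gave -0.04 and -0.09. In RPS16 a dim probe set had 129.2 and 118.3, against 85.8 (0.59 and 0.46), beside -0.04 and 0.05 on the brightest (29391.9 and 31269.4, against 30288.8). RPL7 had a dim probe set at -0.40 at 12 h and 0.44 at 24 h, beside 0.16 and 0.10 on its brightest. RPL37 had 3 dim ones, at 0.50, -0.23 and -0.41 at 24 h, beside 0.02 on its brightest. Dim probe sets may read other transcript forms or background, which was not tested.

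Over the core, 24 probe sets of signal 61.4 to 1000 had a median difference of -0.06 at 12 h and -0.02 at 24 h, and 20.8% and 45.8% of them differed from control by at least 0.32. All other probe sets of that range had 34.5% and 40.3%. Of 67 core probe sets at 10000 or above, 2.99% were that far apart at 12 h and 0 at 24 h, beside 4.88% and 9.38% of 512 other probe sets that bright. Probe sets of one gene at that level agreed in sign in 8 of 14 genes at 12 h and in 11 of 14 at 24 h. RPL24 had the widest pair at 12 h, with 21725.4 against 22498.1 in control cells on one probe set (-0.05) and 20745.2 against 19337.6 on the other (0.10). RPL14 had the widest at 24 h, with 14034.1 against 12691.5 (0.15) and 10246.8 against 10602.1 (-0.05).

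**Figure D4:**
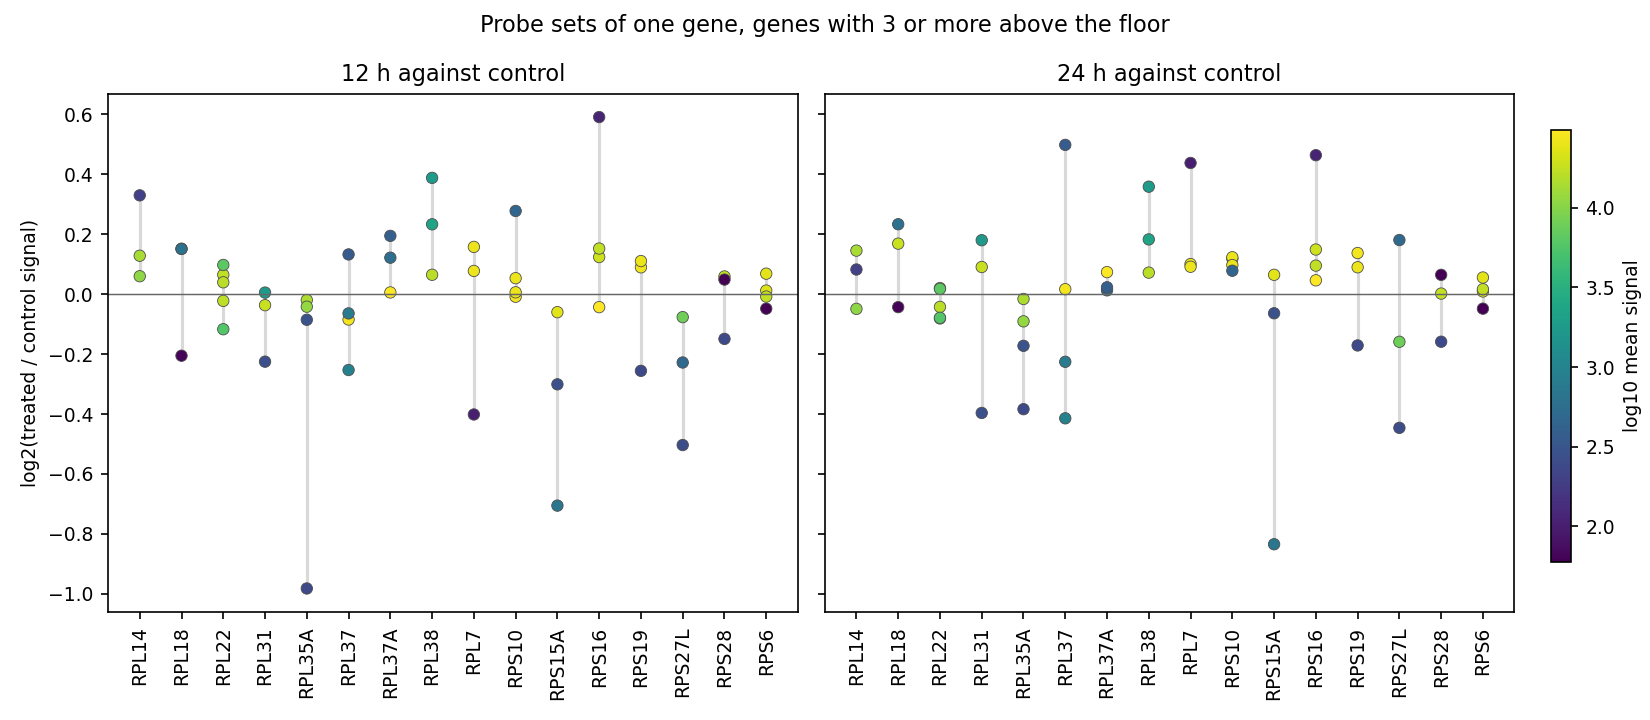
Log2 difference of treated over control signal for each probe set above the floor in genes with at least 3 of them, coloured by log10 mean signal. Yellow (bright) points stay near 0 in every gene shown, and the points far from 0, such as those of RPS15A and RPL35A, are dark (dim).

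Many ribosomal protein genes host small nucleolar RNAs in their introns, and the annotation lists their probe sets under several genes. There were 64 such shared probe sets, 61 of them above the floor and 53 of these listed with a small nucleolar RNA, and 15 ribosomal protein genes were seen in no other way. No gene is named from them. The 44 shared probe sets of mean signal at least 10000 had medians of 0.03 at 12 h (29 higher, 15 lower) and 0.03 at 24 h (30 higher, 14 lower).

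Values are given by kind of start, with no test of the difference. A run within 5 bases of the start was counted in 37 bright core genes. Their median difference was 0.06 at 12 h (31 higher, 6 lower) and 0.07 at 24 h (34 higher, 3 lower). The 6 without had 0.09 (5 higher, 1 lower) and 0.12 (4 higher, 2 lower). RPS15 and RPL27, whose lines printed above hold a run only downstream of that window, are among these 6. The 6 spanned -0.33 to 0.44 at 12 h, beside -0.05 to 0.23 in the 37. By the stricter rule on the first base, 30 bright core genes had 0.06 at 12 h (24 higher, 6 lower) and 0.08 at 24 h (29 higher, 1 lower). The other 13 had 0.06 at 12 h (12 higher, 1 lower) and 0.06 at 24 h (9 higher, 4 lower). For 24 h against 12 h the median of the 30 was 0.02 and that of the 13 was -0.01. Of 22 listed mRNAs that share this start or work with the ribosome, 18 were measured, with a median of 0.02 at 12 h (11 higher, 7 lower) and 0.09 at 24 h (17 higher, 1 lower). The exception at 24 h was EEF2, the translocation factor, with 11031.5 and 10180.8, against 11512.6 in control cells. Under quantile normalization these medians were -0.01 and 0.03. The widest differences in this list were those of GAS5, a noncoding host of small nucleolar RNAs (132.4 and 90.6, against 68.7 in control cells), VIM, an intermediate filament (1720.8 and 1839.6, against 1442.0), EIF4B (4123.8 and 3981.6, against 3385.7) and EIF3H (10317.1 and 11676.9, against 10010.6), both initiation factors. GAS5 was read from 1 dim probe set, near the floor on the control array. Other probe sets of EIF4B gave -0.06 and -0.14 at 12 h and -0.19 and -0.45 at 24 h, and the dim one of EIF3H gave 0.07 and -0.34.

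Mitochondrial ribosomal proteins, which form a separate ribosome, had a like median with a wider spread. Most of them had signals under 10000, where differences spread more widely in general. At 12 h, 16.4% of other probe sets of signal 1000 to 10000 differed from control by at least 0.32, beside 4.88% at 10000 or above. The part of signal level in the wider spread was not tested. The list takes 77 genes by symbol, among them MRPL20-AS1, an antisense RNA, and MRPL45P2, a pseudogene below the floor. In all 76 were measured, with a median of 0.05 at 12 h (54 higher, 22 lower) and 0.08 at 24 h (47 higher, 29 lower), and 6 at 12 h and 7 at 24 h differed from control by at least 0.32, beside 12.5% of all measured genes higher and 12.5% lower by as much at 12 h, and 13.8% and 16.1% at 24 h. MRPL45 had 1237.7 and 1332.6, against 1012.0 in control cells, MRPL10 had 1633.1 and 1697.8, against 1314.1, and MRPL48 had 987.6 and 886.4, against 749.9. MRPL35 had 1260.5 and 1477.3, against 896.3 (0.49 and 0.72), but its other 2 probe sets gave -0.16 and -0.02 at 12 h and -0.42 and 0.06 at 24 h.

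Ribosome assembly factors were mixed. Of 34 listed, 29 were measured, with a median of -0.04 at 12 h (13 higher, 16 lower) and 0.08 at 24 h (19 higher, 10 lower). NLE1, a large subunit assembly factor, had 168.0 and 160.0, against 120.3 in control cells (0.48 and 0.41), WDR75, of the small subunit processome, had 1151.7 and 1130.5, against 883.3 (0.38 and 0.36), and RPF2, which helps load the 5S particle, had 1190.8 and 1319.6, against 1024.1 (0.22 and 0.37). TCOF1, a nucleolar factor for rRNA transcription, had 376.8 and 368.6, against 618.7 (-0.72 and -0.75), but its second probe set gave 0.09 and 0.05.

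Among the 13 genes of RNA polymerase I and MYC, all measured, medians were -0.09 at 12 h and -0.05 at 24 h. POLR1A, the largest subunit of the enzyme that makes rRNA, was the single gene past 2-fold, with 225.1 and 265.2, against 565.4 in control cells (-1.33 and -1.09). Its other 2 probe sets gave -0.07 and -0.01 at 12 h and -0.12 and -0.05 at 24 h, so the value rests on 1 probe set. MYC, a transcription factor that raises ribosome production, had 967.5 and 998.2, against 1283.6 (-0.41 and -0.36). POLR1C had 1067.5 and 1165.7, against 934.6, and MAX, the partner of MYC, had 2104.8 and 2182.1, against 1824.0, though its 5 probe sets spanned -0.11 to 0.36 at 12 h and -0.34 to 0.34 at 24 h.

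The 13 regulators of oligopyrimidine mRNAs had medians of 0.14 at 12 h (7 higher, 6 lower) and -0.01 at 24 h (6 higher, 7 lower). EIF4EBP1, an inhibitor of cap-dependent initiation that mTOR restrains, had 2087.5 at 12 h and 1940.7 at 24 h, against 1122.4 in control cells (0.90 and 0.79). SESN2, a stress-induced inhibitor of mTORC1, had 668.6 and 663.0, against 359.3 (0.90 and 0.88), and both of its probe sets were higher. DDIT4, another stress-induced inhibitor of mTORC1, had 14130.9 and 14294.3, against 10661.2 (0.41 and 0.42). EIF4EBP2 had 1014.7 and 1118.4, against 1473.0 (-0.54 and -0.40). Both treated arrays were on the same side of the control for each of these 4 genes, which were named for a large mean of the 12 h and 24 h differences. That choice and the shared control array favour such agreement, so it carries no weight of its own.

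**Figure D5:**
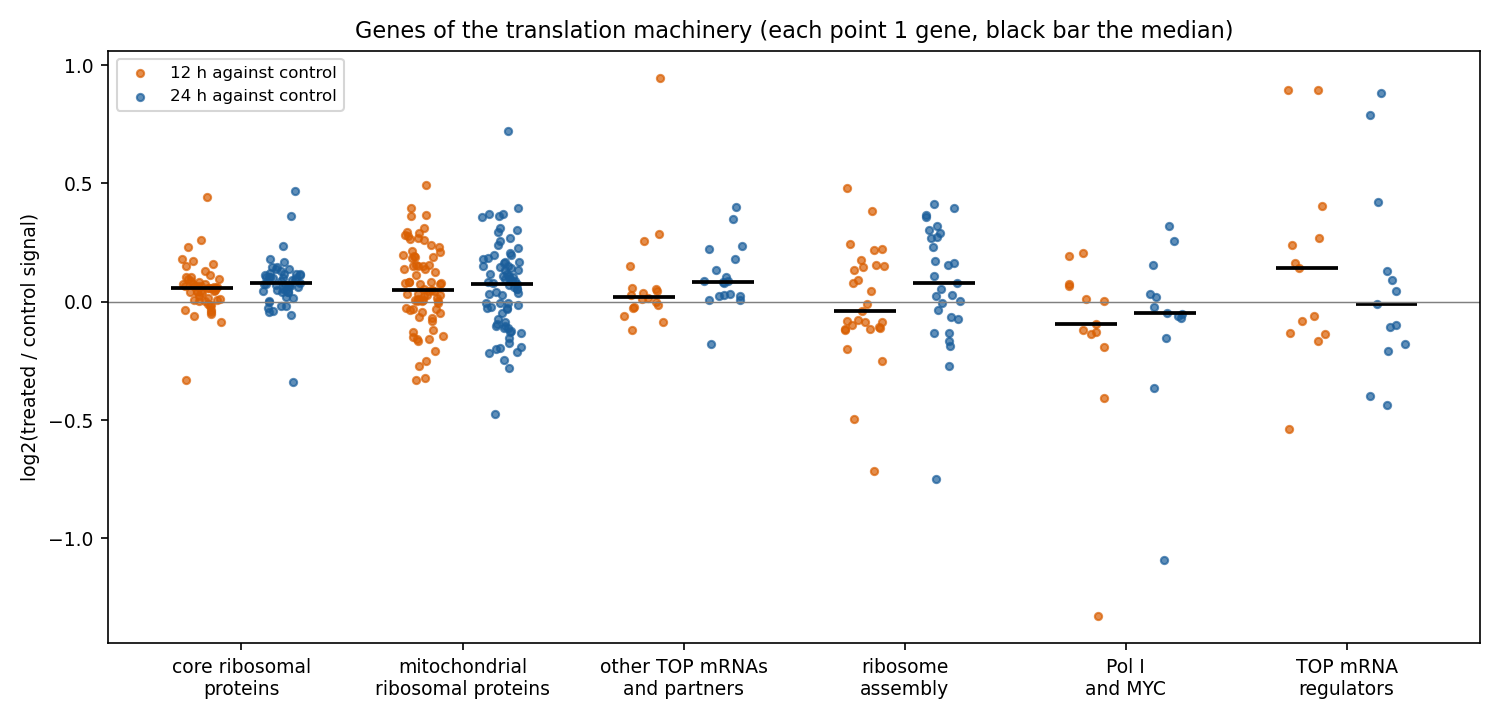
Log2 difference of treated over control signal for each measured gene of the core and of 5 other lists, 12 h in orange and 24 h in blue, with a black bar at each median. Most core genes lie close to 0, and single genes of the other lists, such as POLR1A at -1.33 and SESN2 at 0.90, lie far outside its range at 12 h. Both were read from dim probe sets (mean signal under 1000), where differences spread more widely than among bright genes. The other POLR1A probe sets gave -0.07 and -0.01 at 12 h.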

How the data were processed

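Per the submitters' processing notes, the authors used MAS5 to make the deposited signal, a linear intensity per probe set; the version is not given in the sources used here. Probe sets were named from GEO's platform annotation, and all 69 member genes had a current RefSeq record. The probe set with the highest mean signal stood for a gene among those listing that gene alone, values below 61.4 were raised to that floor, and each comparison was the log2 difference of 2 arrays. Members were counted at a log2 difference of 0.32 and at 2-fold beside all 12351 measured genes. With 1 array a group no test was run. The calculation was tested on simulated data. Named genes were a set of subunits and paralogs, the 6 largest differences each way per comparison, the 6 genes with the most unlike probe sets and up to 4 genes of each other list. EEF2, RPL18, RPL12, RPS4X, RPL14, RPL24 and groups by chromosome were chosen after their values were seen. Members and lists were chosen with earlier results of these data known. Python 3.11.15 (numpy 2.4.6, pandas 2.3.3, matplotlib 3.10.9) and R 4.3.3 with limma 3.58.1, for quantile and cyclic loess scaling, were used. The closing section gives 10 alternatives. The sets of bright genes and of shared probe sets were added after seeing the data. The number of arrays limits the precision.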

Additional observations from a re-analysis of the deposited data

How the results depend on the processing

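Of 10 alternatives, 9 were planned. Under each of them the median over members stayed above 0 in both comparisons with control, from 0.025 to 0.082 at 12 h and from 0.0005 to 0.0788 at 24 h. Under quantile normalization the 24 h median was 0.0147 (large subunit 0.0245, small 0.0076), and that of 24 h against 12 h was -0.0205 (large -0.0056, small -0.0295) with 22 members higher. Median centring gave -0.0086 for 24 h against 12 h (large 0.0058, small -0.0104), and left RPL27 short of 0.32 at 12 h. With the floor at the 25th percentile 5, 9 and 6 members differed by at least 0.32 (12 h, 24 h, 24 h against 12 h), beside 38.8%, 42.4% and 32.8% of all genes measured there, and 2 and 2 were 2-fold apart at 24 h and in 24 h against 12 h (9.2% and 8.34% of all). At the 65th percentile 2 members reached 0.32 at 24 h (25.6% of all) and 0 in 24 h against 12 h (9.69%). Without a floor 1 and 1 were 2-fold apart (3.45% and 2.16%). Many core values rest on probe sets whose ID carries a mark (a letter such as s or x), as for RPS15, RPL27, RPS9 and RPL7. Whether marked probe sets also read related sequences was not tested. Probe sets with no mark in their ID left 35 measured members, of which 21, 18 and 16 were higher. Of these members, 5 at 12 h and 8 at 24 h reached 0.32 (27.1% and 32.4% of all). Their medians were 0.0005 at 24 h (large 0.0126, small 0.0124) and -0.0089 in 24 h against 12 h (large -0.0095). With the median over probe sets, 24 h against 12 h turned to -0.0008. Among bright core genes 0 reached 0.32 at 24 h and 0 in 24 h against 12 h. MRPL35 reversed, to -0.0197 at 12 h with the median over its probe sets, and to -0.16 and -0.42 at 12 h and 24 h with unmarked ones. Of 1239 values of named genes, 1046 moved by less than the spread among probe sets, 190 by more, and 3 called ones changed sign. Changed floors and unmarked probe sets alter which genes are counted, and the causes of the other shifts were not tested. No paired analysis was possible because each group holds 1 array, and no array could be left out.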

Other observations

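Several of the highest bright core genes at 12 h lie on chromosome 19 (RPS15, RPS9, RPL36 and RPL18), and this grouping was made after their values were seen. The 7 core genes there had a median of 0.15 at 12 h (6 higher, 1 lower) and 0.14 at 24 h (7 higher, 0 lower), while the 45 core genes elsewhere had 0.05 and 0.07. The exception at 12 h was RPS16, at -0.04 on its brightest probe set and at 0.12 and 0.15 on the next brightest. The core genes there that did not prompt the grouping were RPS16 (-0.04 at 12 h and 0.05 at 24 h), RPS19 (0.09 and 0.14) and RPS28 (0.06 and 0.00). The genes that prompted it count in the median over the 7, so that median carries no weight of its own. The 11 other genes of chromosome 19 with a mean signal of at least 10000 had medians of 0.11 and 0.13. No test was made of this grouping.

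Markers of other cell types were in part below the floor and in part above it. Stromal and vascular markers numbered 7, and the 3 measured ones were below their control signal on both treated arrays on their brightest probe sets, with COL1A1 at 689.2 and 495.0, against 729.8 in control cells, COL3A1 at 650.4 and 584.9, against 876.9, and PECAM1 at 98.3 and 89.3, against 137.1. The other COL1A1 probe sets gave 0.13 and 0.87 at 12 h and -0.22 and 0.50 at 24 h. Of 5 listed leukocyte and blood cell markers on the array 2 were measured, each above the floor on 1 array on its brightest probe set. They were ITGAM, on the control array, and the globin gene HBB, on the 12 h array. All 8 epithelial markers were measured, with a median difference of -0.07 at 12 h and of -0.10 at 24 h. KRT19 had 1171.3 and 1119.8, against 1702.8, and CLDN4 had 831.0 and 887.8, against 514.8.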
